A study of Mus musculus with 26 samples.

Results

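Expression of 10 genes that respond to temperature was followed in the livers of 26 Eµ-MYC mice kept under regular or shifting light. Hsf1 encodes heat shock factor 1, the main transcriptional activator of the heat shock response. Hspa1a, Hspa1b, Hsph1, Dnajb1, Hsp90aa1, Hspa8 and Hspb1 are its heat-induced group here, and Cirbp and Rbm3 are the cold-induced pair. The genes were taken by name from the deposited count table, in which they were 10 of 36883 gene names with 1 line each. No cut on a measured value picked them, but earlier results of these data were known when they were chosen. All 10 passed the filter on low counts that left 16892 genes for testing.

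Every mouse carried the Eµ-MYC transgene, in which an enhancer of the immunoglobulin heavy chain locus drives MYC in B-lineage cells and not in hepatocytes, and which can give rise to B-lineage lymphoma. The groups were 8 females and 6 males under 12:12 lighting, and 8 females and 4 males after 8 weeks of chronic jet lag lighting. The design question was what chronic jet lag changes in the liver transcriptome of this line. Each library came from 1 labelled mouse, so p-values measure the spread between these mice. The shifting schedule, the ages, the state of health and the hour of collection were not stated in the sources used.

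HSF1 is held inactive by chaperones in an unstressed cell. When proteins unfold, as in heat, it is freed, forms trimers and binds heat shock elements, which are arrays of inverted GAA units in the promoters of chaperone genes. Cirbp and Rbm3 encode small glycine-rich RNA-binding proteins whose RNAs rise when temperature falls by a few degrees. In mouse liver the daily rhythm of body temperature is known to carry heat shock RNAs to their peak in the warm, active phase and Cirbp to its peak in the cool phase, so the balance of the groups has been used as a readout of that rhythm.

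The promoters of 5 of the genes are printed because they show where the letters of an HSF1 element occur, and how nearly identical the pair Hspa1a and Hspa1b is. Windows of 250 bases that end just before the RefSeq start of the transcript were read from RefSeq on GRCm38.p6, 5′ to 3′ on the strand of the gene, and 6 of the 10 genes had a window there. A core of a heat shock element was searched as GAANNTTC or TTCNNGAA. Each of these reads the same on both strands, and overlapping matches were allowed. Capitals mark the matches. The windows were Hspa1a chr17:34972157-34972406 (minus strand), Hspa1b chr17:34959239-34959488 (minus strand), Hspb1 chr5:135887669-135887918 (plus strand), Hsph1 chr5:149636316-149636565 (minus strand) and Cirbp chr10:80167589-80167838 (plus strand).
Hspa1a: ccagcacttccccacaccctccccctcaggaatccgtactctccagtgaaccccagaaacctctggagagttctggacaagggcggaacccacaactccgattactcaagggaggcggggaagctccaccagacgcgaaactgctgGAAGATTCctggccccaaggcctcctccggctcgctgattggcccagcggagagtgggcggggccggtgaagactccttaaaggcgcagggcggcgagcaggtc
Hspa1b: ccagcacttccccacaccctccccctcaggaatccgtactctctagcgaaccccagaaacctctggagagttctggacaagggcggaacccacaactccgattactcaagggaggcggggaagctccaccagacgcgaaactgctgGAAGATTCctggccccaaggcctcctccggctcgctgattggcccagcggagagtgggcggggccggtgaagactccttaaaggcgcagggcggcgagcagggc
Hspb1: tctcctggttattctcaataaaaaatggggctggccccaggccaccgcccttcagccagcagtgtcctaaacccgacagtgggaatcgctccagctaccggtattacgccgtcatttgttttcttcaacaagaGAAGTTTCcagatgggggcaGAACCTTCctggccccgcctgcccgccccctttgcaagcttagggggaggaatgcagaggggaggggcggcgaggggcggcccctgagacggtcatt
Hsph1: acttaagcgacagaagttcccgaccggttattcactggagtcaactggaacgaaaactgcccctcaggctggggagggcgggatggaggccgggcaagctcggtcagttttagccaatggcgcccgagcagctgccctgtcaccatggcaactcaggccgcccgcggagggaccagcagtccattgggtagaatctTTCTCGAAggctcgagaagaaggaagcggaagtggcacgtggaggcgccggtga
Cirbp: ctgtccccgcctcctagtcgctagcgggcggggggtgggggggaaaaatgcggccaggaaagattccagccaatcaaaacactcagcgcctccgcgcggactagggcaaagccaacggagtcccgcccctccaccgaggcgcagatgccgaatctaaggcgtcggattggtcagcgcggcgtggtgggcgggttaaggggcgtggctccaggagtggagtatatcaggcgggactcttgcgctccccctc

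Hspa1a and Hspa1b both held GAAGATTC from 104 bases upstream of the start. Hspb1 held GAAGTTTC from 117 bases and GAACCTTC from 97 bases upstream, and Hsph1 held TTCTCGAA from 54 bases upstream. No match was found in the windows of Cirbp and Dnajb1, which says only that these letters were not in these 250 bases. Of all 32851 promoter windows of this length, 12.8% held either motif. The Hspa1a and Hspa1b windows differed at 3 of 250 bases, written with the Hspa1a base first and counted from 1 at the 5′ end: C44T, T47C and T249G. The identity continued into the transcripts, where 47.1% of the 100-base stretches of Hspa1a occurred in Hspa1b and 49.9% of those of Hspa1b in Hspa1a, while none occurred in Hspa8. How reads shared by this pair were counted was not stated, so their single values are uncertain and the sum of both was tested as well.

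On the same build the RefSeq spans, which join all transcripts of a gene, put Hspa1a at chr17:34969359-34972156 and Hspa1b at chr17:34956429-34959238. Hsph1 spanned chr5:149616843-149636498, Hspb1 chr5:135887919-135889563, Hsp90aa1 chr12:110691036-110696395, Hspa8 chr9:40801276-40805202 and Dnajb1 chr8:83608175-83612653. Hsf1 spanned chr15:76477362-76501155, Cirbp chr10:80165990-80172786 and Rbm3 chrX:8138975-8145880. The printed window of Cirbp therefore lies inside its gene span and that of Hsph1 partly so, upstream of a transcript start within the span. In the GENCODE annotation Hspa1a overlapped Gm20481 by 2225 bases and Rbm3 overlapped Rbm3os by 452 bases, in both cases on the opposite strand. The libraries were stranded, but the strand setting of the counting was not stated, so reads of these partners may not have been told apart.

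Library totals were 45364557 to 50242019 counts. Alb, which encodes albumin, took 10% to 22.1% of them, as fits the label of liver. Levels are given in CPM, the count per 1000000 counts of a library. A count of 0 allows up to 3 counts, which were 0.0597 to 0.0661 CPM. In 8 libraries Cd79a, which encodes a chain of the B-cell receptor complex, stood at 14.5 to 144 CPM, and in the other 18 at 1.28 to 2.95 CPM. Those 8, here called Cd79a-rich, were female 12:12 libraries 6 and 7, female jet lag libraries 2, 5 and 6, male 12:12 libraries 3 and 5 and male jet lag library 8. In such whole-tissue RNA fewer cells of a type and less RNA per cell cannot be told apart.

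**Figure D1:**
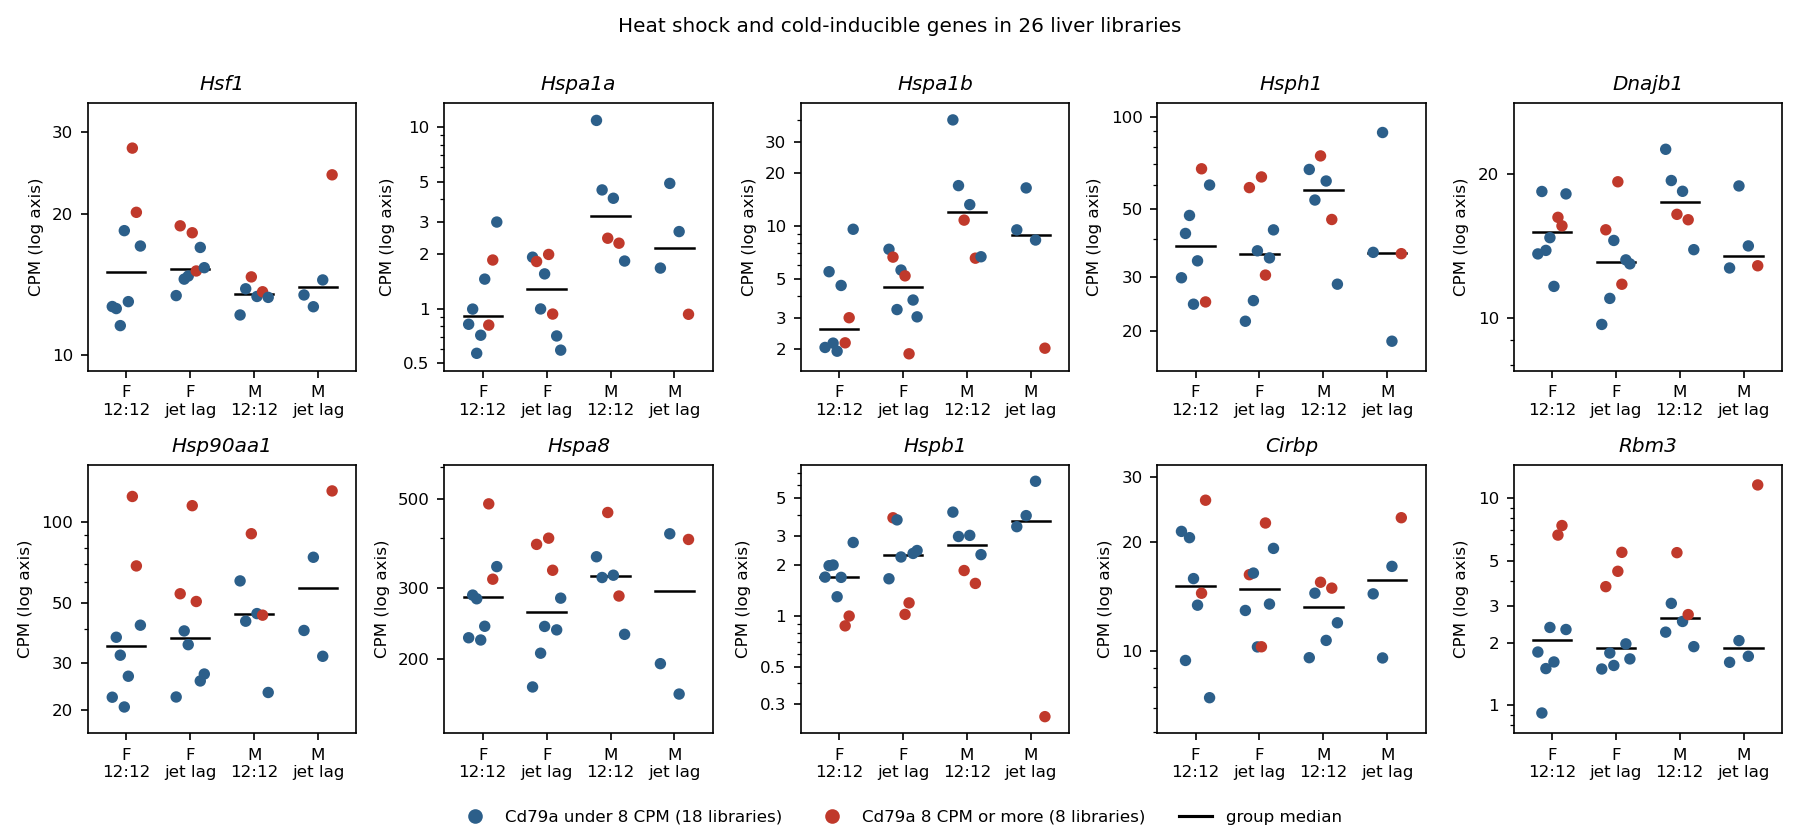
Each panel plots 1 gene in CPM on a log axis, with 1 point per library in the 4 groups of sex and lighting, red for the 8 libraries with Cd79a at 8 CPM or more, blue for the other 18, and a bar at the group median. The lightings overlapped for every gene, 7 of the 8 red points stood above all blue points for Rbm3 and 4 of 8 for Hsp90aa1, and males stood above most females for Hspa1a and Hspa1b.

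No heat-induced or cold-induced gene passed the test for jet lag. None of the 10 genes differed between jet lag and 12:12 lighting over both sexes by edgeR's quasi-likelihood test at an adjusted p of 0.05, where 0.781% of all 16892 genes did (0.444% higher, 0.337% lower). At so low a share a count of 0 among 10 genes says nothing particular about them. No gene of the 10 reached an unadjusted p of 0.05 by edgeR, and DESeq2 called 0 of 10. Per2, a clock repressor that is also known as a target of HSF1, was lower under jet lag. It stood at 24.1 to 70.5 CPM (median 44.97) under 12:12 lighting and 3.30 to 35.4 CPM (median 18.8) under jet lag. Its log2 fold change was -1.38 (SE 0.28, edgeR adjusted p = 0.0133). The hour of collection was not stated, so the lighting and a different clock phase at collection cannot be told apart here.

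Hsf1 stood at 11.5 to 27.7 CPM with a median of 13.5 in the 14 livers under 12:12 lighting, and at 12.7 to 24.3 CPM with a median of 14.9 in the 12 under jet lag. These ranges lay almost on top of each other, and the log2 fold change was 0.05 (SE 0.10, 95% interval -0.17 to 0.26). Of the 10 genes it had the narrowest interval.

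Hspa1b, an inducible HSP70 that is low in cells without stress, ran from 1.95 to 9.59 CPM (median 2.60) in females under 12:12 lighting and from 1.89 to 7.39 CPM (median 4.52) in females under jet lag. In males it ran from 6.58 to 39.9 CPM (median 12.0) under 12:12 lighting, and the 4 males under jet lag held 9.52, 16.4, 8.34 and 2.03 CPM. Within each sex the lightings overlapped, and the log2 fold change over both sexes was -0.16 (SE 0.37, 95% interval -0.92 to 0.60). Its near copy Hspa1a stood at 0.568 to 3.00 CPM (median 0.908) in 12:12 females, 0.592 to 1.99 CPM (median 1.28) in jet lag females and 1.83 to 10.9 CPM (median 3.25) in 12:12 males. The 4 jet lag males held 1.67, 4.89, 2.66 and 0.932 CPM of Hspa1a. Its log2 fold change was -0.27 (SE 0.34, 95% interval -0.97 to 0.43), and that of the summed pair was -0.18.

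Hsph1 encodes HSP110, a nucleotide exchange factor for HSP70. It ran from 24.5 to 74.6 CPM (median 47.0) under 12:12 lighting and from 18.5 to 88.9 CPM (median 35.97) under jet lag. The highest of all 26 libraries, male jet lag 6, and the lowest, male jet lag 7, were thus of 1 group, and the log2 fold change was -0.18 (SE 0.23, 95% interval -0.64 to 0.29). Dnajb1, the HSP40 that delivers substrates to HSP70, came nearest to a difference. It stood at 11.7 to 22.5 CPM (median 16.2) under 12:12 lighting and at 9.71 to 19.3 CPM (median 13.1) under jet lag, with 2 of 12 jet lag livers below the whole 12:12 range. Its log2 fold change was -0.23 (SE 0.11, 95% interval -0.47 to 0.00), with an unadjusted p of 0.0536 and an adjusted p of 0.637 by edgeR.

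Hsp90aa1, the inducible cytosolic HSP90, and Hspa8, the constitutive HSP70, fold and hold many client proteins. Hsp90aa1 stood at 20.6 to 125 CPM (median 42.2) under 12:12 lighting and 22.4 to 131 CPM (median 39.5) under jet lag. Hspa8 stood at 223 to 486 CPM (median 302) and 164 to 410 CPM (median 262), and 4 of 12 jet lag livers lay below the lowest 12:12 liver. Their log2 fold changes were 0.14 (SE 0.29, 95% interval -0.45 to 0.73) and -0.14 (SE 0.15, 95% interval -0.46 to 0.17).

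Hspb1 encodes the small heat shock protein HSP27, which binds unfolding proteins without ATP. It had the largest log2 fold change of the 10, at 0.44 (SE 0.32, 95% interval -0.21 to 1.09, edgeR adjusted p = 0.911), from 0.876 to 4.13 CPM (median 1.93) under 12:12 lighting and 0.254 to 6.29 CPM (median 2.40) under jet lag. Both its lowest and its highest library were jet lag males, numbers 8 and 7. The SD of its log2 CPM under jet lag was 2.15 times that under 12:12 lighting, a ratio that 4.29% of all genes exceeded, and 1.37 times without the Cd79a-rich libraries, against a median of 1.16 and 1.25 over all genes. Over the other 9 genes the ratio ran from 0.83 for Hsf1 to 1.53 for Hspa8. Without the Cd79a-rich libraries it ran from 0.51 for Rbm3 and 0.53 for Hspa1b, which 96.2% and 95.7% of all genes exceeded, to 1.83 for Hspa8.

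Of the cold-induced pair, Cirbp stood at 7.46 to 25.97 CPM (median 15.1) in 12:12 females, 10.3 to 22.5 CPM (median 14.8) in jet lag females and 9.60 to 15.5 CPM (median 13.2) in 12:12 males. The 4 jet lag males held 14.4, 9.59, 17.1 and 23.3 CPM. The ranges of the 4 groups overlapped, and the log2 fold change was 0.06 (SE 0.17, 95% interval -0.28 to 0.40). Rbm3 stood at 0.916 to 7.39 CPM (median 2.35) under 12:12 lighting and 1.49 to 11.6 CPM (median 1.88) under jet lag, with a log2 fold change of 0.08 (SE 0.33, 95% interval -0.58 to 0.75). That value was -0.24 without the 8 Cd79a-rich libraries.

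Among the 7 heat-induced genes the median log2 fold change was -0.16 and 2 were positive, for the cold-induced pair it was 0.07, and over all genes it was 0.02. The B-lineage markers summed to 17.7 to 576 CPM under 12:12 lighting and 24.5 to 1062 CPM under jet lag, and 0 of those 10 markers were called. In the deposited table of the authors 0 of the 10 temperature genes and 222 genes in all had an adjusted p of 0.05 or less. That table gives 12:12 against jet lag and comes from the same series, so it is no independent check. Once it was turned to jet lag against 12:12, the sign was the same as here for 10 of 10.

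Within females 0 of 10 were called, with a background of 0% of all genes by edgeR (772 at an unadjusted p under 0.05, and 55 called by DESeq2). Within males 0 of 10 were called, with a background of 0.0118%, both genes of it lower. The largest male values were -0.77 (SE 0.59) for Hspa1b and -0.74 (SE 0.55) for Hspa1a, beside 0.33 (SE 0.27) for Cirbp. In females Hspa1b was at 0.20 (SE 0.45) and Cirbp at -0.10 (SE 0.21). The difference between the sexes in the response was tested as an interaction and called 0 of 10, with a background of 0% by edgeR (902 genes at an unadjusted p under 0.05, and 0 by DESeq2). For Hspa1b that difference, females minus males, was 0.98 (95% interval -0.54 to 2.50).

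**Figure D2:**
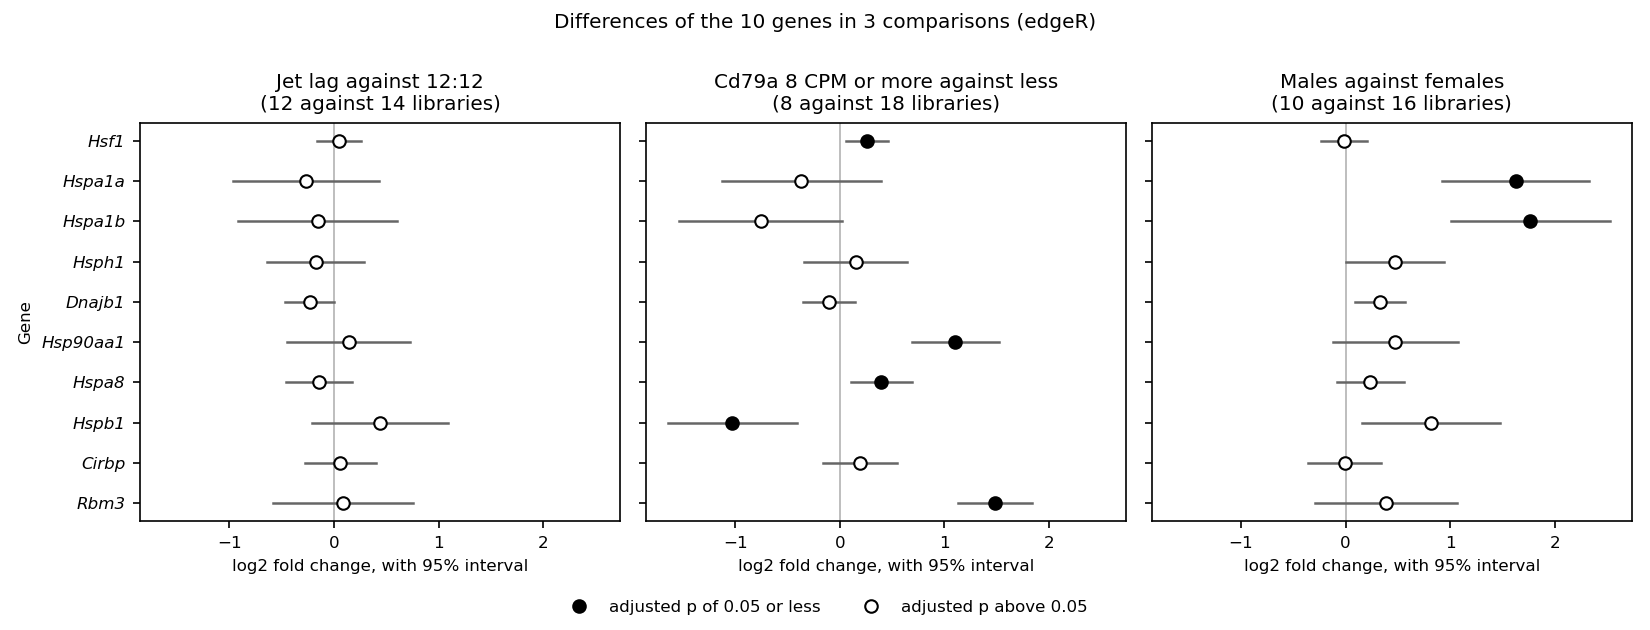
The 3 panels plot the log2 fold change of each gene for jet lag against 12:12 lighting, for Cd79a at 8 CPM or more against less, and for males against females, with 95% intervals, filled where the edgeR adjusted p was 0.05 or less. No gene is filled in the jet lag panel, 5 are filled in the Cd79a panel, and Hspa1a and Hspa1b are filled in the panel of the sexes.

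Other genes of the chaperone network are read beside the 0.781% of all genes called under jet lag. Of the relatives and modulators of HSF1, 0 of 3 tested passed, and Hsf4, best known from the lens, had the smallest p at a log2 fold change of -0.34 (edgeR adjusted p = 0.458). Among 38 cytosolic chaperones and cochaperones 1 passed, Dnajb6, an HSP40 that holds back aggregation, which fell by 0.49 on the log2 scale (SE 0.10, edgeR adjusted p = 0.0134). The median of those 38 was 0.02. Of 16 chaperones of the endoplasmic reticulum and mitochondria 0 passed, with the smallest p in Pdia4, a disulfide isomerase, at 0.20 (SE 0.11, edgeR adjusted p = 0.757). Among 14 clock genes 1 rose and 3 fell, beside 0.444% and 0.337% of all genes.

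Heat-induced and cold-induced RNAs were next set against each other mouse by mouse. Female 12:12 library 8 had the lowest Cirbp of all 26, 7.46 CPM, and the sixth highest Hspa1b, 9.59 CPM. Male 12:12 library 1 had the highest Hspa1b, 39.9 CPM, with 9.60 CPM of Cirbp, and male jet lag library 6 had the highest Hsph1, 88.9 CPM, with 9.59 CPM of Cirbp. At the other end, female 12:12 library 7 had the highest Cirbp, 25.97 CPM, with 3.03 CPM of Hspa1b, male jet lag library 8 had 23.3 CPM with 2.03 CPM, and female jet lag library 6 had 22.5 CPM with 1.89 CPM, the lowest Hspa1b of all.

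**Figure D3:**
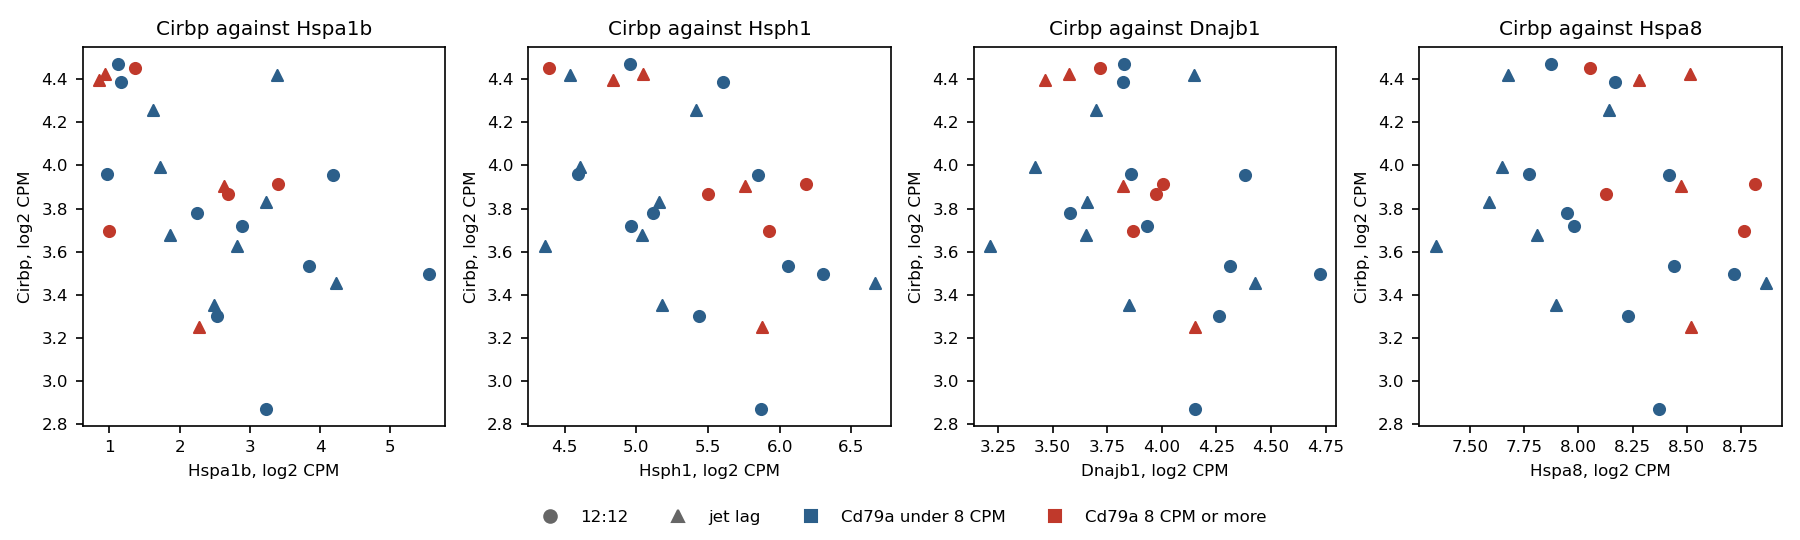
Each panel plots 1 heat-induced gene (Hspa1b, Hsph1, Dnajb1 or Hspa8) against Cirbp in the 26 libraries, both in log2 CPM, with circles for 12:12 lighting, triangles for jet lag and colour for the Cd79a class. Points fall from the upper left to the lower right for Hspa1b (r = -0.50) and Hsph1 (r = -0.48), in both lightings, and less so for Hspa8 (r = -0.22).

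Over the 26 libraries Hspa1b and Cirbp had a Pearson r of -0.50 in log2 CPM (permutation p = 0.00889, adjusted p = 0.0462 over 26 relations), and a Spearman rho of -0.50 (permutation p = 0.0106, adjusted p = 0.0554). For Hsph1 and Cirbp r was -0.48 (permutation p = 0.0124, adjusted p = 0.0539) and rho was -0.53 (adjusted p = 0.0395). The Hspa1b pair thus passed by r and not by rho, and the Hsph1 pair by rho and not by r. Without the 2 libraries farthest from the median of Cirbp, female 12:12 libraries 1 and 8, r was -0.47 for Hspa1b and -0.45 for Hsph1. The Hspa1b relation passed by r in 10 of the 26 sets that left out 1 library, with r from -0.57 to -0.46, and its highest adjusted p by the permutation test was 0.101 without male jet lag library 8.

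Dnajb1 (r = -0.42, rho = -0.46) and Hspa1a (r = -0.41, rho = -0.41) had negative values with Cirbp that did not pass by permutation test (adjusted p = 0.124 and 0.126 for r, 0.0664 and 0.134 for rho). Hspa8 and Hspb1 stood at -0.22, Hsp90aa1 at -0.10 and Hsf1 at 0.06. Differences between these r were not tested. Against all tested genes, 0.598% had a lower r with Cirbp than Hspa1b, 0.781% a lower one than Hsph1, 2.23% than Dnajb1 and 2.72% than Hspa1a.

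The direction of the Hspa1b and Cirbp relation was the same in each subset. The value of r was -0.52 within 12:12 lighting (permutation test, adjusted p = 0.214), -0.47 within jet lag (adjusted p = 0.484) and -0.46 in the 18 libraries with low Cd79a (adjusted p = 0.182). In the 8 Cd79a-rich libraries it was -0.48 (exact permutation test, adjusted p = 0.642). None of these passed, and in the 18 libraries 5.75% of all genes had a lower r with Cirbp than Hspa1b. After the group means were taken out and libraries permuted within groups, r was -0.66 for Hspa1b (adjusted p = 0.00182), -0.54 for Hspa1a (adjusted p = 0.0276), -0.51 for Dnajb1 (adjusted p = 0.0316) and -0.51 for Hsph1 (adjusted p = 0.0514), each by permutation test.

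The r between Rbm3 and Cirbp, which was not among the relations tested, was 0.30 over 26 libraries, 0.01 in the 18 with low Cd79a and 0.52 in the 8 Cd79a-rich ones. Over 26 libraries Rbm3 went with Hsp90aa1 (r = 0.74, permutation p = 3.00e-05, adjusted p = 0.00078, rho = 0.78). It also went with Hsf1 (r = 0.66, adjusted p = 0.00546 by permutation, rho = 0.62) and Hspa8 (r = 0.56, adjusted p = 0.0181 by permutation, rho = 0.64). With Hspb1 it passed by r (r = -0.60, adjusted p = 0.0111 by permutation) and not by rho (rho = -0.32, adjusted p = 0.287 by permutation). Of all tested genes, 8.12% had a higher r with Rbm3 than Hsp90aa1, 12.8% than Hsf1 and 17.7% than Hspa8, and 11.2% a lower one than Hspb1. In the 18 libraries the r of Rbm3 with Hsp90aa1, Hsf1, Hspa8 and Hspb1 was 0.38, 0.49, 0.46 and 0.40. In the 8 Cd79a-rich ones it was 0.64, 0.63, 0.26 and -0.81, and none of these passed. With Hspa1a, Hspa1b, Dnajb1 and Hsph1 the r of Rbm3 was 0.62, 0.50, 0.53 and 0.40 in the 18 libraries. In the 8 it was -0.63, -0.62, -0.54 and -0.36, and by r none of these passed in either class. The relations with Hspb1 and with these genes had opposite signs in the classes, a difference that was not tested. Over all libraries the relation with Hspb1 had an adjusted p of 0.173 by permutation test without male jet lag library 8. Over 26 libraries no relation of the 10 genes with Per2 passed by r or by rho.

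**Figure D4:**
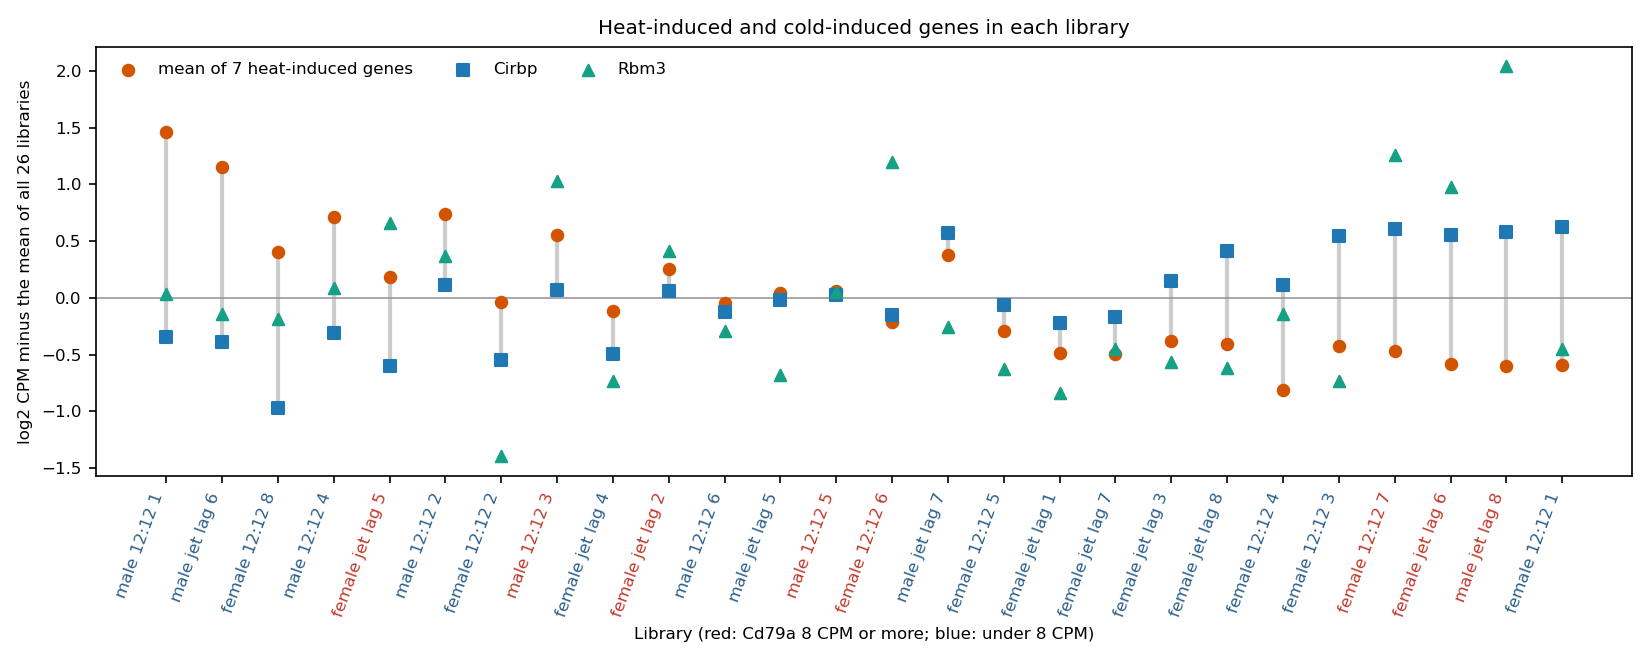
Libraries are ordered by the mean of the 7 heat-induced genes minus Cirbp, in log2 CPM relative to the mean of the 26 libraries, and the points show the heat-induced mean, Cirbp and Rbm3 of each library. Male 12:12 library 1 stands at 1.81 and female 12:12 library 1 at -1.22, and both lightings occur at either end.

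As a summary with no test, the mean of the 7 heat-induced genes minus Cirbp was taken per library, in log2 CPM relative to the mean of the 26 libraries. Rbm3, the other cold-induced gene, was left out of this measure, and an order of the libraries with it was not computed. The measure thus covers Cirbp and not the cold-induced pair. The measure was highest in male 12:12 library 1 (1.81), male jet lag library 6 (1.55), female 12:12 library 8 (1.38) and male 12:12 library 4 (1.02). It was lowest in female 12:12 library 1 (-1.22) and male jet lag library 8 (-1.18), followed by female jet lag library 6 (-1.13) and female 12:12 library 7 (-1.07). The 12:12 libraries had a median of 0.06 (-1.22 to 1.81) and the jet lag libraries one of -0.23 (-1.18 to 1.55), so each lighting spanned nearly the whole range. The medians of the Cd79a-rich libraries and the rest were -0.01 and -0.07. By group the medians were -0.57 in 12:12 females, -0.30 in jet lag females, 0.56 in 12:12 males, all 6 of which were above 0 (0.04 to 1.81), and -0.07 in jet lag males.

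The heat-induced genes were also set against each other. Hspa1a and Hspa1b, which share sequence, had an r of 0.93. Hsph1 and Hspa8 had an r of 0.85, and of 0.95 in the 18 libraries with low Cd79a. Dnajb1 had 0.72 with Hspa1a, 0.71 with Hspa1b and 0.72 with Hsph1. Hsp90aa1 stood at 0.79 with Hspa8 and 0.56 with Hsph1, and in the 18 libraries at 0.76 and 0.80, beside 0.77 with Hspa1a, 0.80 with Hspa1b and 0.76 with Dnajb1 there, where over 26 libraries it had 0.31, 0.17 and 0.36. Hspb1 had 0.68 with Hspa1b, while with Hsp90aa1 it had -0.31 over 26 libraries and 0.74 over the 18. These values describe libraries of the same tissue and of similar depth, whose batches were not stated, and carry no test.

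Outside the 10 genes, the nearest to Hsph1 over the 26 libraries were Chordc1 (0.91), a zinc-binding HSP90 cochaperone, Tubd1 (0.84), Stip1 (0.78), the adaptor that joins HSP70 to HSP90, Mlx (0.77) and Trappc13 (0.76). The lowest values with Hsph1 were those of Slc8b1 (-0.80), Accs (-0.79), Tcp11l2 (-0.79), Tbc1d22a (-0.76) and Cbx7 (-0.75). Nearest to Cirbp were Zc3h6 (0.75), LOC105244356 (0.73), Dennd3 (0.73), Cfap45 (0.73) and Crtc2 (0.66), and the lowest were Ranbp6 (-0.72), Tstd2 (-0.71), Fbxo33 (-0.68), Med22 (-0.67) and Uhrf2 (-0.67). All are Pearson r of log2 CPM across the same libraries.

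In the Cd79a-rich libraries Rbm3, Hsp90aa1, Hspa8 and Hsf1 were higher and Hspb1 was lower. The classes were set by a measured value and are no groups of the study. Of the 10 genes 5 were called between them, 4 higher and 1 lower, in an additive model of class, sex and lighting. All genes were called at 42.7% (23.1% higher, 19.6% lower), so 5 of 10 is near the background and is not a result about these genes as a list.

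Rbm3 showed the clearest separation. The 8 Cd79a-rich libraries held 2.74 to 11.6 CPM (median 5.48) and the other 18 held 0.916 to 3.11 CPM (median 1.80), with 7 of the 8 above all of the 18. It was 2.80-fold higher (log2 1.48, SE 0.17, edgeR adjusted p = 1.10e-07), and 7.5% of all genes had a larger difference in either direction. Cirbp, the other cold-induced gene, stood at 10.3 to 25.97 CPM (median 15.8) against 7.46 to 21.3 CPM (median 13.4), at a log2 difference of 0.20 (SE 0.17, 95% interval -0.16 to 0.55).

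Hsp90aa1 stood at 45.2 to 131 CPM (median 79.9) in the Cd79a-rich libraries and 20.6 to 74.2 CPM (median 33.6) in the rest. In 15 of the 18 it was below the lowest of the 8, and it was 2.15-fold higher (log2 1.11, SE 0.20, edgeR adjusted p = 8.21e-05). Hspa8 stood at 287 to 486 CPM (median 391) against 164 to 410 CPM (median 241), a log2 difference of 0.40 (SE 0.14, edgeR adjusted p = 0.0247). Hsf1 stood at 13.6 to 27.7 CPM (median 18.6) against 11.5 to 18.4 CPM (median 13.4), a log2 difference of 0.26 (SE 0.10, edgeR adjusted p = 0.0365). Without female 12:12 library 6 neither passed, at an edgeR adjusted p of 0.0598 for Hspa8 and 0.141 for Hsf1. Hsf1 also did not pass without male jet lag library 8 (adjusted p = 0.112), female 12:12 library 3 (0.0517) or male jet lag library 5 (0.0526). Apart from fits that left out 1 library, Hspa8 and Hsf1 each passed in 6 of 9 alternatives.

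Hspb1 went the other way, at 0.254 to 3.83 CPM (median 1.11) against 1.30 to 6.29 CPM (median 2.40). In 5 of the 8 it was below the lowest of the 18, and its log2 difference was -1.03 (SE 0.30, edgeR adjusted p = 0.00717). Rbm3, Hsp90aa1 and Hspb1 were past the threshold in 26 of 26 fits that left out 1 library. Within 12:12 lighting alone they were at 1.25, 1.02 and -1.14, all past it, and within jet lag alone at 1.72, 1.23 and -1.005, where Hspb1 did not pass (edgeR adjusted p = 0.286).

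The inducible HSP70 pair did not pass. Hspa1b ran from 1.89 to 10.8 CPM (median 4.12) in the Cd79a-rich libraries and from 1.95 to 39.9 CPM (median 6.17) in the rest, at a log2 difference of -0.76 (SE 0.38, edgeR adjusted p = 0.112), and Hspa1a was at -0.37 (SE 0.37). With a Cd79a limit of 16 CPM, which left 7 libraries in the class, Hspa1b was at -1.04 and passed (edgeR adjusted p = 0.0267), while Hspa8 (0.0771) and Hsf1 (0.0507) did not. Hspa1b also passed without female jet lag library 2 (-1.01, edgeR adjusted p = 0.0344). Apart from fits that left out 1 library, it passed in 2 of 9 alternatives, the limit of 16 CPM among them. Hsph1 at 0.15 (SE 0.24) and Dnajb1 at -0.10 (SE 0.12) did not pass.

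Cell marker lists are read beside the 42.7% of all genes called. The B-lineage markers summed to 107 to 1062 CPM (median 360) against 17.7 to 43.2 CPM (median 29.8), with 10 of 10 higher. Cd79a, which set the classes, is 1 of them, so these 10 markers describe the classes and their count is not read as a result. Without Cd79a the sums were 92.8 to 917 CPM against 16.04 to 40.3 CPM. Proliferation genes summed to 65.4 to 835 CPM against 16.1 to 34.8 CPM (10 of 10 higher), macrophage and Kupffer cell markers to 421 to 2080 CPM against 217 to 475 CPM (6 of 6), and neutrophil markers to 6.07 to 406 CPM against 0.983 to 6.79 CPM (7 of 7 tested). T and NK cell markers spanned 1.66 to 4.70 CPM against 1.73 to 5.15 CPM, with 0 of 8 higher and 1 lower. Erythroid markers were higher for 4 of 6, endothelial and stellate cell markers for 3 of 6 each, and immediate early genes for 3 of 10, while hepatocyte markers were higher for 1 and lower for 2 of 8. Of the 14 clock genes Arntl was higher (1.63, edgeR adjusted p = 0.0151) and Nr1d1 lower (-0.93, adjusted p = 0.0117), both named after their values were seen. The part of these cells and of the hour of collection in the values of Rbm3, Hsp90aa1, Hspa8, Hsf1 and Hspb1 was not tested.

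Among other chaperone genes, 12 of 38 cytosolic ones were higher and 7 lower in the Cd79a-rich libraries, beside 23.1% and 19.6% of all genes. The smallest p-values belonged to Hspa14, a ribosome-bound HSP70 (0.67, edgeR adjusted p = 2.80e-05), Hspbap1 (1.10, adjusted p = 4.62e-05), Cacybp (0.87, adjusted p = 4.94e-05) and Hspa2, an HSP70 best known from the testis (1.22, adjusted p = 5.39e-05). Of 16 chaperones of the endoplasmic reticulum and mitochondria 0 were higher and 4 lower, the mitochondrial protease Lonp1 (-0.38), the mitochondrial HSP90 Trap1 (-0.31), and Canx (-0.25) and Hsp90b1 (-0.24) of the endoplasmic reticulum. All 3 tested relatives and modulators of HSF1 were lower, Hsf2 at -0.36, Hsbp1, whose product binds HSF1 trimers, at -0.31 and Hsf4 at -0.34.

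Males and females differed in the inducible HSP70 pair. This comparison was chosen after the values were seen. Females held 1.89 to 9.59 CPM of Hspa1b (median 3.59, n = 16) and males 2.03 to 39.9 CPM (median 10.2, n = 10), with 5 of 10 males above all females and 9 of 10 above the female median. It was 3.40-fold higher in males (log2 1.77, SE 0.37, edgeR adjusted p = 0.00269). Hspa1a was at 0.568 to 3.00 CPM (median 0.996) in females and 0.932 to 10.9 CPM (median 2.55) in males, 3.09-fold higher (log2 1.63, SE 0.34, edgeR adjusted p = 0.00249). The male below the female median was jet lag 8, which is Cd79a-rich.

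These were 2 of 10 genes called, both higher, beside 9.13% of all genes (4.46% higher, 4.67% lower). Because the pair shares sequence it may count as a single observation, and its summed counts had a log2 difference of 1.74 (edgeR adjusted p = 0.00229). Leaving out any 1 library kept both past the threshold, and without male 12:12 library 1, the highest, the values were 1.27 for Hspa1a and 1.39 for Hspa1b. Within 12:12 lighting they were 1.95 (edgeR adjusted p = 0.0253) and 2.17 (adjusted p = 0.0245), and within jet lag, with 4 males, 1.15 (adjusted p = 0.345) and 1.16 (adjusted p = 0.346). Whether the sex difference itself differed between lightings is the interaction given above (edgeR adjusted p = 0.814 for Hspa1b).

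The other heat-induced genes had positive values in males that did not pass, Hspb1 at 0.82 (SE 0.32, edgeR adjusted p = 0.119), Hsp90aa1 at 0.48 (SE 0.29), Hsph1 at 0.47 (SE 0.23), Dnajb1 at 0.33 (SE 0.12, edgeR adjusted p = 0.0728) and Hspa8 at 0.24 (SE 0.16). The median of the 7 was 0.48, beside 0.02 for all genes. Dnajb1 passed by DESeq2 (adjusted p = 0.0487) and without the Cd79a-rich libraries (0.45, edgeR adjusted p = 0.0144). Apart from fits that left out 1 library, Hsp90aa1 passed in 2 of 8 alternatives and Hspb1 in 1 of 8. With 1 library left out Dnajb1 passed in 2 fits and Hspb1 in 1. Cirbp at -0.01 (SE 0.17, 95% interval -0.36 to 0.34) and Hsf1 at -0.01 (SE 0.11) did not pass, nor did Rbm3 at 0.38 (SE 0.33). Of the 38 cytosolic chaperones 31 had positive values, beside 52.2% of all genes, and 2 passed, beside 9.13% of all genes. These were Dnajb4 (0.37, edgeR adjusted p = 0.0204) and Bag3, the HSP70 cochaperone of selective autophagy (0.57, adjusted p = 0.0365). Of the 16 in the endoplasmic reticulum and mitochondria 0 passed, Dnajb11 coming nearest (0.29, edgeR adjusted p = 0.0583), and of the relatives of HSF1 0 of 3 passed.

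Immediate early genes, which also answer to handling, summed to 133 CPM in male 12:12 library 1 and to 74.0 to 89.1 CPM in the other 5 of its group, and 2 of 10 were higher in males. T and NK cell markers were lower in males for 3 of 8, and B-lineage markers were called for 0 of 10, where 4.46% of all genes were higher and 4.67% lower. Of the 14 clock genes 2 were higher in males, Cry1 (0.82, edgeR adjusted p = 0.0353) and Nfil3 (1.002, adjusted p = 0.0384), which were named after their values were seen. The part of handling, of these cells and of the hour of collection in the sex difference was not tested.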

How the data were processed

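Stranded mRNA libraries of 26 livers were sequenced, and the expected counts per gene name deposited by the authors were read as they stood. The submitters' processing notes name STAR, DESeq2 and mm10. In the deposited counts 0.015 stood for 0 in 45.8% of cells, and 1.44% of cells were not whole (tolerance 1e-06) and were rounded. No name was blank, and the 36930 lines were summed to 36883 names. CPM was the count divided by the column sum, times 1000000. The authors' normalized signal was not tested, and of the authors' deposited comparison table the log2 fold change and adjusted p-value were read, while its log2 standard error and its score (the Wald statistic) were not used.

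Genes kept by filterByExpr (by group, count minimum 10) were scaled by TMM and tested with edgeR 4.0.16 (R 4.3.3, robust quasi-likelihood fit, all 26 libraries), with adjustment by Benjamini and Hochberg over 16892 genes and a threshold of 0.05. Jet lag over both sexes had sex as a covariate, and the tests within a sex and of the interaction came from the 4 group means. The Cd79a class (8 CPM or more) was fitted beside sex and lighting, and males against females beside lighting. The SE of a log2 fold change was derived from its F value (size over root F), and 95% intervals used the t distribution of that fit. Correlations used log2 CPM with a prior count of 2 and two-sided tests with 100000 permutations (exact in 8 libraries), adjusted over 26 relations, which were Hsf1 and the heat-induced genes with Cirbp and Rbm3, and all 10 genes with Per2. Python 3.11.15 with scipy 1.17.1 was used. The fits were tested on simulated data. No 2 libraries of a group were copies, the lowest chi-square per degree of freedom over 77 pairs being 31.5.

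The text names all 10 members and Per2, from each pathway list the genes past the threshold up to the 4 of smallest p or else the one of smallest p, and the 5 genes nearest to and farthest from Cirbp and Hsph1. Members, lists, tests and alternatives were chosen with earlier results of these data known. DESeq2 1.42.0, its size factors, no count filter, other Cd79a limits, subsets of libraries and leaving out each library were tried as alternatives. Mouse gene positions, promoters and transcripts came from RefSeq and GENCODE annotations of GRCm38.p6, the assembly of mm10.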

Additional observations from a re-analysis of the deposited data

Results flagged for a closer look

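In 9 of 40 checks of a gene within a group, 1 library stood far from the others of its group by Dixon's criterion. The checks were made on CPM and not on its log, and each of the 9 was a high value. The rate of about 1 chance flag in 20 checks holds for independent, normally distributed values. CPM need not be so distributed and Hspa1a and Hspa1b share sequence, so 9 of 40 cannot be set against that rate. The causes were not tested. In male 12:12 library 1, Hspa1a was at 10.9 CPM, with 1.83 to 4.51 CPM in the other 5 of the group, and Hspa1b at 39.9 CPM, with 6.58 to 16.9 CPM. In female 12:12 library 8, which had the lowest Cirbp of all, Hspa1b was at 9.59 CPM, with 1.95 to 5.51 CPM in the rest of the group. The immediate early genes summed to 96.2 CPM in that liver and to 66.5 to 232 CPM in the others of its group.

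The other 6 lie in Cd79a-rich libraries. In male jet lag library 8, Hsf1 was at 24.3 CPM (12.7 to 14.5 CPM in the other 3) and Rbm3 at 11.6 CPM (1.61 to 2.05 CPM), while its B-lineage markers summed to 1062 CPM (24.5 to 38.1 CPM in the others). Hsp90aa1 was at 125 CPM and Hspa8 at 486 CPM in female 12:12 library 6 (20.6 to 68.9 CPM and 223 to 339 CPM in the other 7), whose neutrophil markers summed to 195 CPM (2.53 to 6.79 CPM). Hsp90aa1 was at 115 CPM in female jet lag library 5 (22.4 to 54.3 CPM in the other 7), whose neutrophil markers summed to 406 CPM (2.48 to 40.9 CPM). Rbm3 was at 5.47 CPM in male 12:12 library 3 (1.92 to 3.11 CPM in the other 5), whose B-lineage markers summed to 397 CPM (17.7 to 146 CPM).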

How the results depend on the processing

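No call on the 10 genes under jet lag changed with any alternative run: 312 of 329 refitted values kept direction and side of the threshold, and 17 changed sign without being called. For the Cd79a class 333 of 349 were kept, 1 changed sign and 15 crossed the threshold, and for males against females 312 of 339, 17 and 10. The causes of changes across alternatives were not tested. Over both sexes, where 132 genes were called, DESeq2 called 274, the fit without Cd79a-rich libraries 381, and the Cd79a class as a covariate 225. In females, where 0 were called, these gave 55, 13 and 8, and female libraries alone 14. In males, where 2 were called, they gave 94, 219 and 39, while DESeq2 size factors and male libraries alone gave 0. Jet lag libraries alone called 2678 genes for the Cd79a class, in place of 7205. For males against females, where 1542 were called, 3188 were called without the Cd79a-rich libraries, 768 within 12:12 lighting and 145 within jet lag. Relations are counted here by r. Of the 5 relations past the threshold, 0 passed within 12:12 lighting, within jet lag, in the 18 libraries with low Cd79a, or in the 8 Cd79a-rich ones. By rho, Hsp90aa1 with Rbm3 passed within jet lag (rho = 0.85, adjusted p = 0.0234 by permutation test). In the 18 libraries Dnajb1 with Rbm3 (rho = 0.66) and Hspa8 with Per2 (rho = 0.66) passed by rho, each at an adjusted p of 0.0481 by permutation test.

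Replicate numbers did not pair the mice: over 10 pairs of the same number the correlation of deviations ran from -0.38 to 0.60, with 6 over 0.1, and 1 library matched its own number best. The replicate block called 111 genes over both sexes, 20 in females, 4 in males and 0 for the interaction. Under it the jet lag values of Cirbp (-0.0875), Hsf1 (-0.038), Hspa1a (0.21), Hspa1b (0.47), Hsph1 (0.0465) and Rbm3 (-0.0837) changed sign. Rbm3 under jet lag was also negative without the Cd79a-rich libraries (-0.24) and with the class as a covariate (-0.0913). Dnajb1 was at 0.0747 for the class in jet lag libraries. For males against females Cirbp was at 0.19 in jet lag libraries, and Hsf1 at 0.14 there and at 0.0114 without the Cd79a-rich ones. The r of Hspb1 with Rbm3 was 0.40 in the 18 libraries with low Cd79a, and that of Hsph1 with Per2 was -0.24 in the 8 rich in it.

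With each library left out in turn, the calls ran from 70 (without female jet lag 3) to 244 (without male jet lag 8) over both sexes, from 0 to 13 in females, from 0 to 106 (without male jet lag 8) in males, at 0 for the interaction, from 5827 to 7678 for the Cd79a class, from 1134 to 2069 for the sexes, and from 3 to 7 for the relations. The jet lag values ran from -0.00247 to 0.12 for Cirbp, -0.0214 to 0.13 for Hsf1, -0.0479 to 0.37 for Hsp90aa1, -0.25 to 0.0688 for Hspa1b and -0.29 to 0.26 for Rbm3. The values of males against females ran from -0.0855 to 0.047 for Cirbp, -0.10 to 0.053 for Hsf1 and -0.0552 to 0.53 for Rbm3. At 4 males under jet lag the intervals within males are wide.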
